A study of Mus musculus with 8 samples.

Results

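The circadian clock genes described here are Dbp, Tef, Per1, Per2, Per3, Nr1d1, Nr1d2, Cry1, Cry2 and Clock. They were measured on 8 mouse expression arrays and are read through every probe set, the group of short probes that reports 1 transcript, whose only gene symbol was one of these names. This gave 24 probe sets for 10 genes, of 34945 probe sets with 1 symbol and 18193 genes in all. The 10 genes were taken up because Dbp was lower on the Aire-knockout arrays of both tissues. Their knockout differences are therefore given as a description with no test. The difference between spleen and lymph node played no part in that choice and is the tested comparison. All 10 genes were among the 11557 tested, those with a signal above the pooled median of 59.0 on at least 2 arrays, and 18 of the 24 probe sets passed the same filter.

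The study asked about tolerance mediated by cells outside the thymus that express Aire, a nuclear protein that promotes the display of self-antigens. It had 4 groups of 2 arrays, each array carrying the letter A or B: spleen and lymph node, each from wild-type and from Aire-knockout mice. The labels give no strain, allele, age, sex, hour of collection, cell type or sorting step, and do not say what the letters mark or whether arrays came from separate animals. P-values therefore measure only the spread between these samples, which may be technical, and for genes of daily rhythm the hour at which each sample was taken cannot be told apart from its group or letter.

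The mammalian clock is a feedback loop of transcription. CLOCK, paired with BMAL1 (Arntl on this array), binds the E-box and turns on the Per and Cry genes, whose proteins return to the nucleus and shut the pair down. The same pair turns on Nr1d1 and Nr1d2, which encode the repressors REV-ERB alpha and beta, and these hold down Bmal1. Dbp, a proline- and acidic-rich basic leucine zipper (PAR bZIP) factor, is among the most strongly rhythmic output genes in many tissues. With its relative Tef it binds the D-box, which the repressor NFIL3 also binds. In immune organs the loop is known to give daily rhythm to cell traffic and to myeloid and lymphoid gene expression.

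Letters that match the sites of this circuit were searched for in the members' own promoters. Binding was not measured, so a match is a match of letters only. RefSeq windows on GRCm38.p6, from 250 bases before to 50 bases after a transcript start, were found for 9 of the 10 genes, 13 windows in all, with none for Per2. Each was searched on both strands for the E-box CACGTG, the related CACGTT, the D-box TTATGTAA or TTACGTAA, and AGGTCA, the half-site of the REV-ERB and ROR receptors. Capitals mark the match, on either strand, in the stretches that follow, each of which lies before its annotated gene. Cry1 and Tef are shown for the E-box, Nr1d1 for CACGTT, Per3 for the D-box that Dbp protein binds, Nr1d2 for the half-site, and Dbp because its levels lead the results.
Cry1, chr10:85185082-85185141, minus strand: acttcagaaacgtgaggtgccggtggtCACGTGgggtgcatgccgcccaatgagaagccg
Tef, chr15:81802519-81802578, plus strand: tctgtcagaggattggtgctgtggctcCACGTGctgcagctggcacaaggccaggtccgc
Nr1d1, chr11:98775378-98775432, minus strand: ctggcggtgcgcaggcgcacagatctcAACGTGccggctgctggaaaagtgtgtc
Per3, chr4:151044837-151044896, minus strand: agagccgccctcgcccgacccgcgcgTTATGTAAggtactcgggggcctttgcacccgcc
Per3, chr4:151044790-151044849, minus strand: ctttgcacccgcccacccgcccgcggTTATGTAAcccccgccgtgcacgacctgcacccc
Nr1d2, chr14:18239151-18239210, minus strand: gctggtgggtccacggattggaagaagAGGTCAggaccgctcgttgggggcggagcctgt
Dbp, chr7:45704997-45705099, plus strand, ending at the base before the annotated gene: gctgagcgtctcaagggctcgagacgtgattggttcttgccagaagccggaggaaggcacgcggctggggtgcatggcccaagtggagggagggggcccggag

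Among the 9 genes with a window, the E-box stood in those of Tef, Per1 and Cry1, in 4 of the 13 member windows, against 7.15% of all 32851 windows of this length. CACGTT stood in those of Nr1d1, Cry1 and Cry2, 3 of 13 windows, against 4.68% of all windows. The D-box was found in Per3 alone among the members, at 2 places in 1 of 13 windows, against 1.06% of all windows. AGGTCA stood in 3 of 13, of Per1, Nr1d2 and Clock, against 16.3% of all windows. The Dbp window held none of these letters, which says nothing of sites elsewhere in or near the gene.

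The targeted gene and the markers of other cells were read before the members. Aire signal was 5037 and 5204 on the wild-type spleen arrays and 1009 and 2376 on the knockout ones. In lymph node it was 3052 and 3535 on the wild-type arrays, then 791 and 1137 on the knockout arrays, so it was lower on every array labelled knockout, though not at the floor of 9.58 to which low signals were raised. None of the 6 dendritic cell markers was at the floor on any array, and they ran from Itgax at 77.2 to 282 and Flt3 at 332 to 641 up to Ccr7, the homing receptor of migratory dendritic cells, at 8241 to 14752. Of the 3 spleen identity genes, Tlx1 and Nkx2-5 lay at the floor on 4 of 8 arrays each, and Spic was at 634 to 2443. Of the 4 lymph node identity genes measured, Lyve1, a lymphatic vessel marker, was at the floor on 2 arrays and Glycam1, Prox1 and Madcam1 on none. Spic was higher in spleen within each genotype, but the other identity genes of both lists overlapped between tissues. Lyve1 was highest in knockout spleen, at 97.5 and 114. Prox1 was highest on wild-type spleen array B, at 225. Glycam1 read 409 on that array, against 63.9 and 82.5 in wild-type lymph node and 839 on knockout lymph node array A. Of the 4 B cell genes measured, Pax5 was at the floor on 5 arrays, while Ms4a1, Cd79a and Cd79b were highest on knockout spleen array A, at 435 to 557. The summed signal of the 3 Y-linked genes measured was 55.1 and 49.0 on the wild-type arrays lettered A and at least 718 on the other 6, so the wild-type groups, unlike the knockout groups, each held 1 array with these genes near background. Array medians spanned 0.28 on the log2 scale before they were brought to a common value.

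Dbp signal, read by probe set 1438211_s_at, was 2.52-fold higher in spleen than in lymph node and had the largest tissue difference of the 10 genes. In spleen it was 4342 and 5187 on the wild-type arrays A and B and 2037 and 2324 on the knockout arrays. In lymph node it was 1549 and 1893 on the wild-type arrays, then 808 and 1111 on the knockout arrays. Each of the 4 spleen arrays was above each of the 4 lymph node arrays, with no overlap between any of the 4 groups. From the highest down, the group means were 4765 ± 597 in spleen of wild-type mice, 2180 ± 203 in knockout spleen, 1721 ± 243 in wild-type lymph node and 960 ± 214 in knockout lymph node (SD, n = 2 each). The 2 middle groups were neighbours whose gap was smaller than that between the 2 arrays within either. The tissue difference, averaged over genotypes, was 1.33 on the log2 scale with a 95% interval of ± 0.55 and limma's adjusted p was 0.175. Taken by genotype, it was 1.47 among wild-type arrays and 1.20 among knockout arrays.

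Across all 11557 genes the share called for a tissue difference at adjusted p under 0.05 by limma was 0%, against 1242 genes, or 10.7%, with an unadjusted p under 0.05. Dbp and Nr1d2 were the members among those 1242, 2 of 10. With a trended and robust prior for the variances, Dbp passed at an adjusted p of 0.0141, one of 48 genes called under that setting, while over all 20 alternatives its adjusted p ranged from 0.0141 to 0.418. Complete separation of the 4 spleen arrays above the 4 lymph node arrays was seen in Dbp alone of the members, and in 3.82% of all genes. The second Dbp probe set, 1418174_at, gave 1264, 983, 555 and 1137 on the spleen arrays (wild-type A and B, then knockout A and B) and 328, 522, 183 and 300 on the lymph node arrays in the same order. It too had all spleen arrays on top, with a difference of 1.60.

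Cell type markers that differed between the tissues stood beside this result. The summed erythroid signal (3 of 5 genes measured) in spleen was 98.4 to 2436 on wild-type and 1486 to 2125 on knockout arrays, against 69.9 to 104 and 30.8 to 79.1 in lymph node, with the alpha-globin gene Hba-a1 at the floor on 4 of the 8 arrays. The summed T cell signal (5 of 6 genes) in lymph node was 1049 to 1346 on wild-type and 1328 to 1539 on knockout arrays, against 451 to 813 and 484 to 2027 in spleen, and the part of either list in the result was not tested. The erythroid sum leaned on Slc4a1, at 2159 on wild-type spleen array A but 41.6 on array B. The highest T cell sum, 2027, was on knockout spleen array A, where Cd4 read 844 and Cd8a 1030. The labels give no cell type, so values in spleen and in lymph node need not be levels of the whole organ. If the samples held mixed cells, fewer cells of a type and less RNA per cell cannot be told apart.

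**Figure D1:**
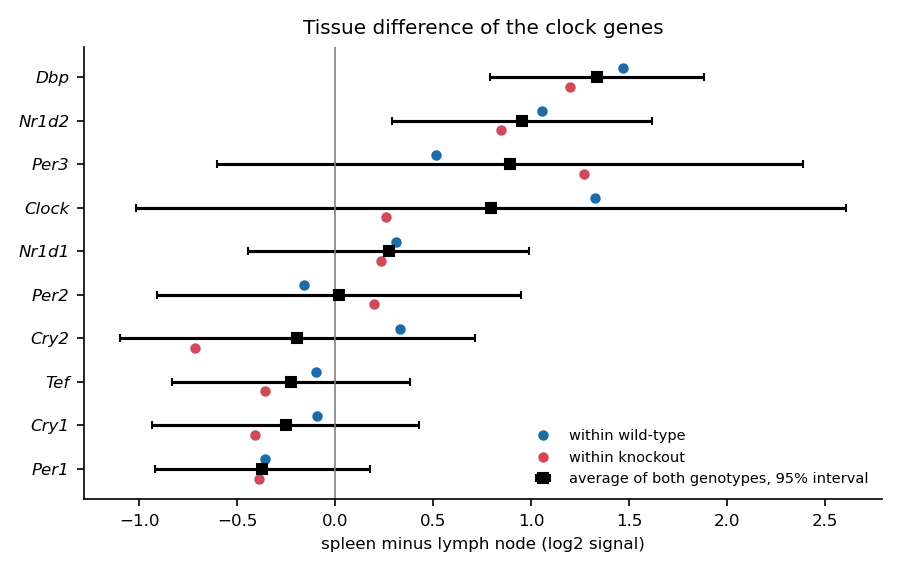
Spleen minus lymph node differences of log2 signal for the 10 clock genes, ordered by size. Black squares with bars are the average over genotypes with its 95% interval, and coloured points are the differences within wild-type and within knockout arrays. The interval lies wholly above 0 for Dbp and Nr1d2 and spans 0 for the other 8, before adjustment over all genes.

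Tef, the other PAR bZIP member, did not separate the tissues. Its signal was 276 and 196 in wild-type spleen, 160 and 217 in knockout spleen, 211 and 293 in wild-type lymph node and 218 and 263 in knockout lymph node. The tissues overlapped, and the difference was -0.23 ± 0.61 (limma's adjusted p = 0.809). Among knockout arrays alone spleen lay below lymph node by a narrow margin, 217 against 218. Its direction depended on the probe set: the mean of the 3 Tef probe sets put spleen above lymph node by 0.17.

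Nr1d2, which encodes REV-ERB beta, came second to Dbp. It read 867 and 949 in wild-type spleen and 378 and 557 in knockout spleen. In lymph node it read 344 and 553 on the wild-type arrays, then 212 and 308 on the knockout arrays. Spleen was above lymph node within each genotype, by 1.06 and 0.85, although knockout spleen array A fell below wild-type lymph node array B. The averaged difference was 0.95 ± 0.66, or 1.93-fold, with limma's adjusted p at 0.332. Dbp and Nr1d2 were the 2 of 10 members with spleen arrays higher within both genotypes, a pattern seen in 7.35% of all genes. The second Nr1d2 probe set, 1416958_at, also had spleen higher within both genotypes, by 0.73 on average.

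Nr1d1, the gene of REV-ERB alpha, had overlapping tissues. Its signal was 301 and 351 in wild-type spleen, 147 and 187 in knockout spleen, 207 and 331 in wild-type lymph node and 103 and 194 in knockout lymph node. The overlap held within both genotypes. The tissue difference was 0.27 ± 0.72 (limma's adjusted p = 0.806).

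The 3 Period genes, repressors of the CLOCK and BMAL1 pair, were measured with very unequal precision. Per1, which also responds to glucocorticoids, read 420 and 581 in wild-type spleen, 359 and 384 in knockout spleen, 560 and 713 in wild-type lymph node and 452 and 522 in knockout lymph node. It leaned the other way from Dbp, at -0.37 ± 0.55 (limma's adjusted p = 0.624), at -0.36 among wild-type and -0.39 among knockout arrays; the wild-type arrays of the tissues overlapped and the knockout arrays did not. Per2 was dim, with 85.4 and 75.2 in wild-type spleen, 48.2 and 76.0 in knockout spleen, 151 and 53.0 in wild-type lymph node, and 66.1 and 42.1 in knockout lymph node. A single array, wild-type lymph node A, was high, and the tissue difference of 0.02 ± 0.93 (limma's adjusted p = 0.993) changed direction with the scaling and with single arrays. Per3, whose promoter carries the D-boxes shown above, read 182 and 125 in wild-type spleen, 48.1 and 137 in knockout spleen, 59.3 and 187 in wild-type lymph node and 15.9 and 71.2 in knockout lymph node. Arrays A and B lay far apart in every group but wild-type spleen, and the tissue difference of 0.89 ± 1.49 (limma's adjusted p = 0.675) was smaller than its interval.

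The cryptochromes, partners of the Period proteins in repression, were close to even between tissues. Cry1 gave 601 and 385 in wild-type spleen, 266 and 401 in knockout spleen, 407 and 648 in wild-type lymph node and 425 and 445 in knockout lymph node, a difference of -0.25 ± 0.68 (limma's adjusted p = 0.812). Cry2 gave 791 and 253 in wild-type spleen, 180 and 178 in knockout spleen, 424 and 299 in wild-type lymph node and 301 and 286 in knockout lymph node. Its difference was -0.19 ± 0.90 (limma's adjusted p = 0.910). The value shifted with the arrays of wild-type spleen, where array A was high. It was -0.60 without array A of that group and 0.22 without array B. By genotype the difference was -0.09 among wild-type and -0.41 among knockout arrays for Cry1, and 0.33 and -0.71 for Cry2. For both genes the tissues overlapped among wild-type arrays but not among knockout arrays, as for Per1 and Tef. The share of all genes with this pattern was not counted, so nothing is read from it.

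Clock, the activator itself, had arrays A and B far apart in every group on the probe set that represents it. It read 331 and 727 in wild-type spleen and 112 and 468 in knockout spleen. In lymph node it read 99.2 and 385 on the wild-type arrays, then 82.9 and 441 on the knockout arrays. In each pair the second value, array B, was above the first, by 1.14 to 2.41 on the log2 scale. The tissue difference was 0.79 ± 1.81 (limma's adjusted p = 0.770). The 3 other Clock probe sets gave 0.26 to 0.53 between tissues. On 1439314_at array B was again higher in all 4 groups, but on 1418660_at and 1435775_at array A was higher in 3 of 4.

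Of the 10 members, 6 were higher and 4 lower in spleen, with a median difference of 0.15 against 0.06 over all genes tested. None passed limma's adjusted threshold. The intervals bound what these arrays can show: for Tef, Per1, Nr1d1 and Cry1 they reached 0.55 to 0.72 to either side on the log2 scale, while for Per3 and Clock they reached 1.49 and 1.81.

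**Figure D2:**
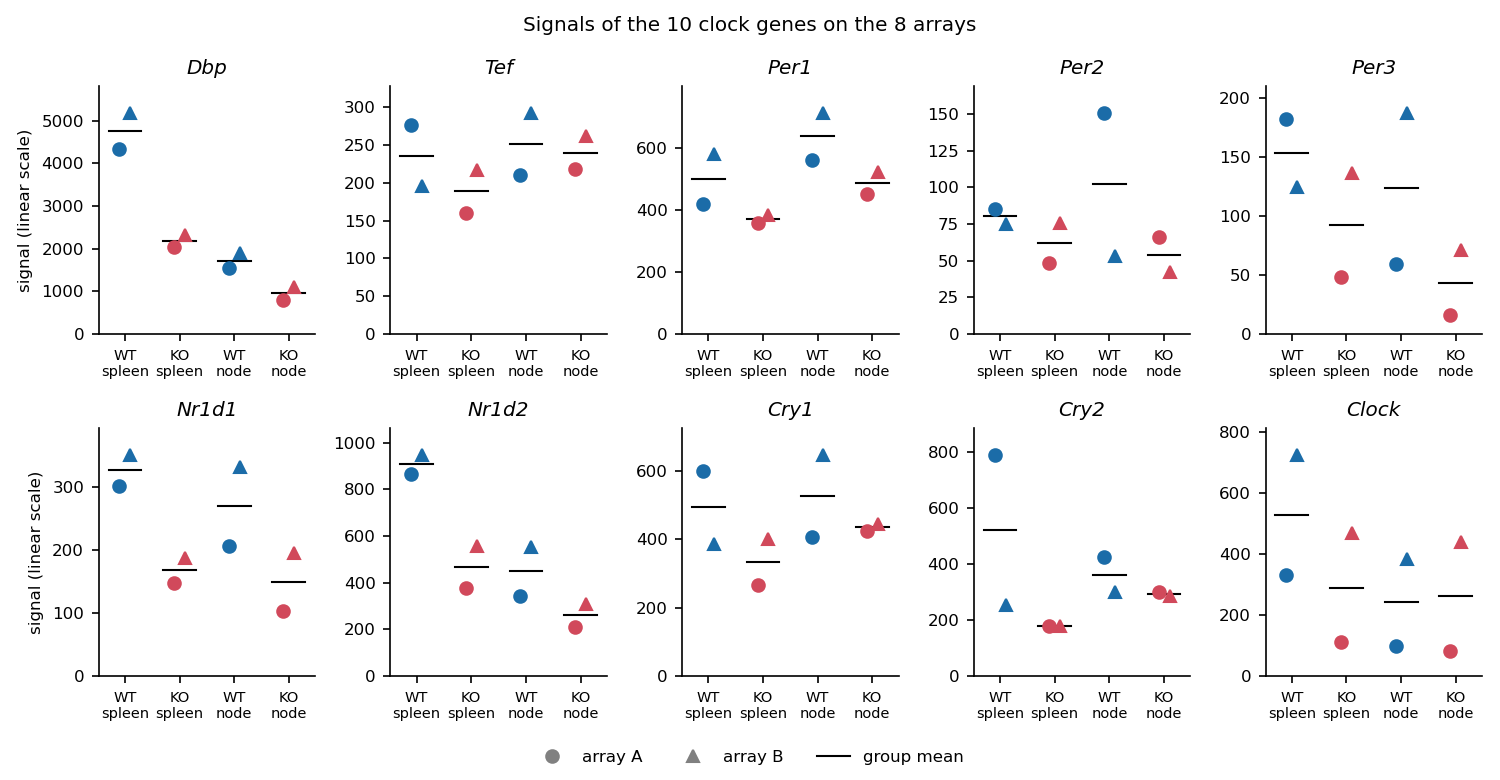
Signal of each clock gene on the 8 arrays, on a linear scale from 0 with an axis of its own per gene. Circles are arrays lettered A, triangles arrays lettered B, blue wild-type and red knockout, and black lines the means of 2 arrays. Dbp steps down from 4765 in wild-type spleen to 960 in knockout lymph node, while the 2 Clock arrays of every group lie far apart.

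The knockout arrays carried lower signal for Dbp, Nr1d1, Nr1d2 and Per1 in both tissues, with no overlap between the genotypes in either on the probe set that represents each gene. The lower Dbp signal on this contrast led to the choice of the genes, so these values are not tested. Dbp differed by -1.13 (SE 0.33) in spleen, or 2.18-fold, and by -0.85 (SE 0.33) in lymph node, or 1.81-fold. Nr1d1 differed by -0.97 and -0.89 (SE 0.43 each), or 1.95-fold and 1.85-fold. Nr1d2 differed by -0.98 and -0.77 (SE 0.40 each), or 1.98-fold and 1.71-fold. Per1 differed by -0.41 and -0.38 (SE 0.33 each). The 4 of 10 stand beside 5.68% of all genes that were lower without overlap in both tissues, a comparison from which nothing is read, since the same contrast chose the genes.

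The other members were also below 0 but with overlapping arrays or in one tissue. Cry2 differed by -1.32 (SE 0.54) in spleen, where both knockout arrays were below both wild-type arrays, and by -0.28 in lymph node. The spleen value depended on the high wild-type array A and was -0.50 without it. Clock gave -1.10 (SE 1.08) in spleen and -0.03 in lymph node, and Per3 gave -0.89 and -1.65 (SE 0.89 each), with overlapping genotypes in both tissues. Per2 gave -0.41 and -0.76, Cry1 -0.56 and -0.24, and Tef -0.32 and -0.06. The Per2 value in lymph node was -0.01 without wild-type array A.

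All 10 members were below 0 in both tissues, with medians of -0.93 in spleen and -0.57 in lymph node. Among the 11557 genes, 57.4% had a spleen value below 0, 53.1% a lymph node value below 0 and 35.2% both, and the medians were -0.09 and -0.03. Nothing is read from this either, since the same contrast chose the members. Without the shift of array medians, Clock in lymph node turned to 0.01 and 9 of 10 remained below 0 there. The knockout spleen and lymph node differences have no arrays in common, but they share the genotype labels and the letters. At adjusted p under 0.05 limma called 0 genes of 11557 for the knockout difference in spleen, in lymph node and on average, where 973, 391 and 924 genes had an unadjusted p under 0.05. Whether the knockout effect differed by tissue was also fitted, with 0 genes called and 395 at an unadjusted p under 0.05. Spleen effect minus lymph node effect was -0.27 for Dbp, -0.08 for Nr1d1 and -0.21 for Nr1d2, and was -1.04 for Cry2 and -1.07 for Clock.

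**Figure D3:**
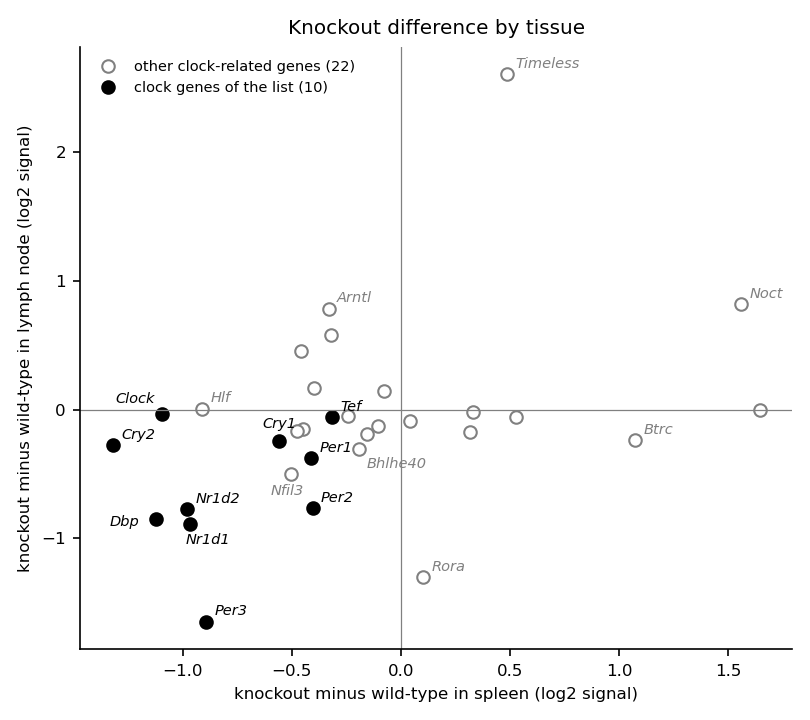
Knockout minus wild-type difference of log2 signal in spleen (horizontal) and lymph node (vertical) for the 10 clock genes (filled) and 22 other clock-related genes (open). The filled points, of the list chosen on this contrast, lie at the lower left, from Tef and Cry1 near the centre to Per3 at -0.89 and -1.65. The open points lie on both sides of 0 on both axes, with Arntl, the Bmal1 gene, at -0.33 and 0.79.

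Probe sets of the same gene repeated the direction in most cases. Averaged over tissues 24 of 24 were below 0, with 23 in spleen and 21 in lymph node, and 18 of the 24 passed the filter. Over the 34945 probe sets with 1 symbol the shares were 53.2%, 51.0% and 50.0%. Nothing is read from these counts, since the same contrast chose the genes. Since 1 gene can hold up to 6 probe sets and their arrays are shared, the probe sets are not separate observations. Dbp was less uniform than its brighter probe set shows: on 1418174_at the spleen genotypes overlapped, knockout array B reading 1137 against 983 on wild-type array B, and the difference was -0.49 in spleen and -0.82 in lymph node. The second Nr1d2 probe set gave -0.80 in spleen, with no overlap, and -0.65 in lymph node, where knockout array B at 358 lay above wild-type array A at 340. For Per3, 4 of the 6 probe sets failed the filter on dim signal, and 1421086_at lay at the floor on 4 arrays.

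**Figure D4:**
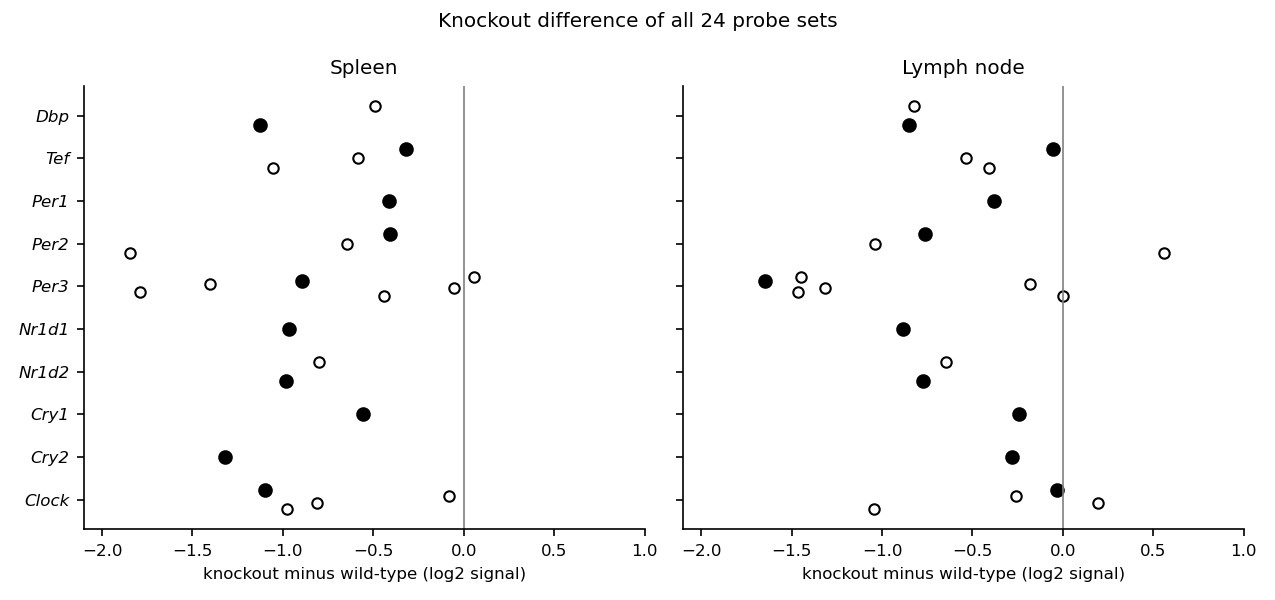
Knockout minus wild-type difference of log2 signal of all 24 probe sets, by gene, in spleen (left) and lymph node (right). Filled points are the probe set that represents the gene and open points its other probe sets. The Dbp probe sets differ more from each other in spleen, at -1.13 and -0.49, than in lymph node, at -0.85 and -0.82.

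Markers of other cells and of cell division also differed with genotype. All 6 macrophage markers were higher in knockout on average, with summed signals in spleen of 1844 to 2844 in wild-type and 2019 to 10504 in knockout arrays, and in lymph node of 1541 to 3066 and 3033 to 7057. Of these the red pulp macrophage gene Cd5l was at the floor on 3 arrays and Siglec1 and Csf1r on 1 each. All 6 proliferation genes were also higher, at 1223 to 2164 and 2009 to 6751 in spleen and 1509 to 1736 and 1691 to 3293 in lymph node. The mean log2 signal of both lists was higher in knockout without overlap in either tissue. For macrophage genes it was 5.48 to 6.26 against 7.32 to 9.36 in spleen, and 5.96 to 6.82 against 7.47 to 8.96 in lymph node. For proliferation genes it was 6.28 to 6.40 against 7.37 to 8.79, and 5.93 to 6.72 against 7.17 to 8.25. The summed dendritic cell signal was lower, at 27175 to 28944 in wild-type against 21281 to 23198 in knockout spleen. In lymph node it was 23736 to 29088 against 20056 to 23670, although 2 of the 6 genes were higher. This sum leans on Ccr7 and H2-Ab1, the brightest of the 6. The mean log2 signal of the 6 genes overlapped between spleen genotypes: array A gave 10.67 for wild-type against 10.53 for knockout, array B 10.50 against 10.62. For lymph node that mean was lower in knockout, at 10.35 to 10.63 against 10.67 to 10.80. All 4 neutrophil genes measured were higher on average, with sums of 373 to 429 in wild-type and 153 to 8041 in knockout spleen, and 96.6 to 99.4 and 68.8 to 190 in lymph node; Mpo was at the floor on 4 arrays, Elane on 3, and S100a8 and S100a9 on 1 each. The B cell sum was 306 to 481 in wild-type spleen and 148 to 1616 in knockout spleen, with 2 of 4 genes higher. Knockout spleen array A held the highest value of the macrophage, proliferation, neutrophil and B cell sums. Their part in the knockout values of the clock genes was not tested. As single arrays were left out, the Dbp difference lay between -1.25 and -0.997 in spleen and between -1.08 and -0.62 in lymph node. With the Y-linked signal as a covariate it was -1.29 and -1.001. Under that covariate Cry2 in lymph node turned to 0.11, Per2 was -0.0030 in spleen and -0.41 in lymph node, and Clock was -2.09 and -0.90.

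The letter of the array also followed several members, a pattern noticed only after the values were seen. Array B was above array A in all 4 groups for Dbp, Per1, Nr1d1, Nr1d2 and Clock, 5 of 10, against 10.9% of all genes tested, on the probe set that represents each gene. The second Dbp probe set had B higher in 3 of 4 groups, and 2 of the 4 Clock probe sets had A higher in 3 of 4. Cry2 had array A on top in all 4 groups, 1 of 10 members, against 930 of the 11557 genes tested. The mean difference, B minus A, was 1.89 for Clock, 0.54 for Nr1d1, 0.48 for Nr1d2, 0.30 for Dbp and 0.28 for Per1 on the log2 scale. The median over the members was 0.29 against 0.03 for all genes. On the arrays lettered B alone, all with Y-linked signal, Dbp read 5187 in wild-type and 2324 in knockout spleen, and 1893 and 1111 in lymph node. Since the letters have no stated meaning, animal, sex, day and hour of collection cannot be told apart here.

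**Figure D5:**
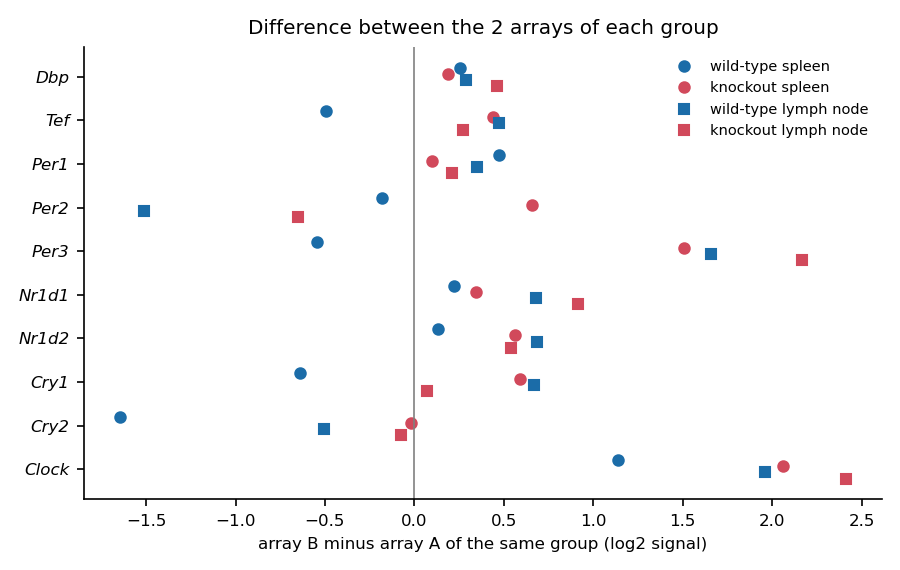
Difference of log2 signal between array B and array A within each of the 4 groups, for the probe set that represents each gene. Circles are spleen, squares lymph node, blue wild-type and red knockout. All 4 points lie above 0 for Dbp, Per1, Nr1d1, Nr1d2 and Clock, and all 4 lie below 0 for Cry2.

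The other genes of the clock circuit were split in direction. Of 26 measured, 22 passed the filter, and Arntl2, Bhlhe41, Rorb and Fbxl21 were too dim to test. Between spleen and lymph node 11 were above 0 and 11 below, with a median of 0.00 and none called by limma, while 3 had an unadjusted p under 0.05, as did 10.7% of all genes. Between genotypes 13 were below 0 in spleen and 14 in lymph node, and 2 of 22, Nfil3 and Bhlhe40, were lower in knockout without overlap in both tissues, as were 5.68% of all genes. The median knockout difference averaged over tissues was -0.01, against -0.69 for the members, which were chosen on it.

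Nfil3, the repressor that competes with Dbp protein for the D-box, had the opposite tissue order to Dbp. It read 1492 and 1811 in wild-type spleen, 1235 and 1089 in knockout spleen, 2216 and 2765 in wild-type lymph node and 1762 and 1742 in knockout lymph node. Spleen was lower within both genotypes, as in 3.67% of all genes, although wild-type spleen array B lay above both knockout lymph node arrays. The difference was -0.59 (limma's adjusted p = 0.405). Its knockout differences were -0.50 in each tissue, in the same direction as those of Dbp. No member was lower in spleen within both genotypes.

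Arntl, the partner of Clock, is the gene that the REV-ERB proteins repress. It read 322 and 423 in wild-type spleen, 184 and 466 in knockout spleen, 75.3 and 189 in wild-type lymph node and 218 and 193 in knockout lymph node. Spleen exceeded lymph node by 1.07 on average (limma's adjusted p = 0.433). In lymph node both knockout arrays were above both wild-type arrays, a difference of 0.79, while in spleen the genotypes overlapped at -0.33. Rora, which acts at the same half-site as the REV-ERB proteins, differed by 0.10 in spleen and -1.30 in lymph node between genotypes, and its tissue difference was 0.25 (limma's adjusted p = 0.770). Hlf, another PAR bZIP factor, had a tissue difference of -0.46 and knockout differences of -0.91 in spleen and 0.01 in lymph node.

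Of the remaining activators and repressors, Npas2, which can stand in for Clock, had a tissue difference of 0.38 ± 0.71. Ciart, a repressor of the CLOCK and BMAL1 pair, gave -0.20 ± 0.97. Timeless gave 0.61 ± 2.21, with wild-type lymph node array B at the floor. Bhlhe40, which represses at the E-box, was bright on all arrays. It read 8069 and 7908 in wild-type against 7538 and 6464 in knockout spleen, and in lymph node 7235 and 7635 against 6877 and 5237, differences of -0.19 and -0.31. Among genes that set the life of clock proteins, the tissue differences were, for the casein kinase genes, 0.31 for Csnk1d, with spleen higher within both genotypes (7.35% of all genes), and -0.27 for Csnk1e, with the ubiquitin ligase gene Fbxw11 at -0.21 and the kinase gene Gsk3b at 0.17. The rhythmic output genes Wee1, Nampt and Klf10 stood at -0.23, -0.13 and -0.09.

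Glucocorticoid-responsive genes were read because these hormones rise and fall over the day and act on Per1. Of 11 such genes, Per1 included, 8 were below 0 in spleen relative to lymph node and 3 above, none was called by limma and 2 had an unadjusted p under 0.05, against 10.7% of all genes. The zinc finger factor Klf9 stood at -1.29 (limma's adjusted p = 0.440), the metallothioneins Mt1 at -0.98 and Mt2 at -0.84, and the kinase gene Sgk1 at -0.95. Between genotypes 7 were below 0 and 4 above on average.

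Across the 8 arrays the genes most like Dbp, by Pearson's r of log2 signal, were Dtx4 (r = 0.99), Traf2, Bst2, Atp11b and Amot (r = 0.98 each). Dtx4, an E3 ubiquitin ligase of the Deltex family, read 771 and 946 in wild-type spleen, 397 and 533 in knockout spleen, 357 and 403 in wild-type lymph node and 183 and 222 in knockout lymph node. Among the members Nr1d2 came closest at r = 0.97, with 16 genes above it, followed by Nr1d1 at 0.76 and Per3 at 0.73. Clock stood at 0.60, Per2 at 0.23, Cry2 at 0.21 and Cry1 at 0.10. Per1 and Tef were near 0, at -0.02 and -0.05. These values describe 8 arrays that share the same groups, among them the knockout contrast on which Dbp was picked, and carry no test.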

How the data were processed

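RNA from 8 samples was hybridised to Affymetrix mouse arrays. The authors deposited intensity values, 1 linear signal per probe set, made with MAS5 per the submitters' processing notes, and the 2% trimmed mean of every array was 250. Depth does not apply to arrays, and their number limits the precision. Of 45101 probe sets, 64 controls were left out. Arrays were brought to 1 median, a floor was set at the 20th percentile of all signals (9.58), and log2 was taken. A gene was read by its probe set with the highest mean. One linear model of the 4 groups was fitted to all tested genes with limma 3.58.1 in R 4.3.3, with Benjamini-Hochberg adjustment, after a check on simulated data. Intervals are at 95%. Named were all members, Aire, Nfil3, Arntl, up to 4 genes per clock list by unadjusted tissue p, and the 5 genes most like Dbp. The members and lists were chosen with earlier results of these data known. Bhlhe40, Rora, Tlx1 and the other markers were named from those lists. Alternatives covered scaling, floor, filter, probe sets, prior, covariate, letters and single arrays.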

Additional observations from a re-analysis of the deposited data

How the results depend on the processing

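The fit reported called 0 genes in every comparison, and the alternatives that called any were as follows. The tissue difference had 1 gene called with quantile normalization, 1 with no median shift, 3 with the floor at the 40th percentile, 1 with no filter, 1 with the mean of probe sets and 48 with the trended robust prior. The knockout difference averaged over tissues had 2 with the floor at the 40th percentile and 6 with the trended robust prior, and on leaving out single arrays 0 to 2, with 2 without knockout spleen array B. In spleen alone the trended robust prior called 1. Tissue differences that turned sign were Tef at 0.17 with the mean of probe sets, Per2 at -0.0018 with quantile normalization and -0.077 with no median shift, Per2 between -0.36 and 0.40 and Cry2 between -0.60 and 0.22 on leaving out single arrays. Their causes were not tested. With the letters as a replicate block 0 genes were called in all 5 comparisons, and the adjusted p of Dbp for tissue was 0.185, or 0.243 with genotype and letter as a replicate block, an alternative chosen after seeing the data. Whether the letters pair the samples was not settled. The correlations of A minus B between groups ranged from 0.06 to 0.31, the highest between knockout spleen and knockout lymph node. Y-linked signal followed the letter across tissues: the sum was 55.1 and 49.0 on the wild-type arrays A of spleen and lymph node. In knockout its mean log2 signal was 8.01 on A and 9.08 on B in spleen, and 7.31 and 9.46 in lymph node. The fit reported treated all arrays as independent. The Dbp tissue difference kept its direction in all 20 alternatives, from 1.22 to 1.47.

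The limits are those of 2 arrays a group. Knockout values of Clock ran from -2.13 to -0.07 in spleen and from -1.24 to 1.17 in lymph node as single arrays were left out, and those of Per3 from -1.64 to -0.14 and from -2.73 to -0.57. Nr1d1 in lymph node ran from -1.34 to -0.43, Nr1d2 there from -1.12 to -0.43, and in spleen Per1 ran from -0.65 to -0.18, Cry1 from -0.88 to -0.24 and Tef from -0.57 to -0.07. The brighter Dbp probe set is of the kind that can match more than 1 transcript, and its probes were not checked here; with the mean of both probe sets the spleen difference was -0.81. In lymph node the signs of Tef, Cry1, Cry2 and Clock between genotypes changed under 1 to 3 alternatives each.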
